A study of Mus musculus with 4 samples.

Results

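Helper T cells divide their work between programs, and each program is run by a small set of transcription factors. The set described here holds 10 genes that encode factors of the Th2, Th17 and follicular helper programs: Gata3, Rora, Maf, Batf, Bcl6, Irf4, Stat3, Stat6, Id2 and Runx1. They were taken by symbol from a table of 16230 genes, in which all 10 were found. The table gives transcript levels as FPKM, fragments scaled to transcript length and to the mapped fragments of a library.

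GATA3 directs the Th2 program, which STAT6 starts downstream of interleukin 4. RORα supports the Th17 program, downstream of STAT3, which relays interleukins 6, 21 and 23. BATF and IRF4 bind DNA together at composite elements opened after T cell receptor stimulation, and c-MAF acts with them in Th17 and follicular helper cells. BCL6 is the repressor that defines follicular helper cells. ID2 binds E proteins and keeps them from DNA, and RUNX1 pairs with CBFβ in T cells. Most of these factors also work outside T cells, for example ID2 and IRF4 in dendritic cells, c-MAF in macrophages and GATA3 and RORα in innate lymphocytes.

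The libraries came from cells sorted by flow cytometry as CD4 T cells from spleens of Rag-/- mice, 8 weeks after transfer of sorted naive CD4 T cells had been used to cause colitis. Rag-/- mice make no T or B cells of their own but keep macrophages, dendritic cells, NK cells and granulocytes. Donor cells were ERafl/fl, with loxP-flanked alleles of Esr1, the estrogen receptor α gene (control, 2 libraries), or CD4creERafl/fl, in which Cre driven by CD4 sequences acts on the same alleles (2 libraries). Both groups thus share the flanked alleles, the Rag-/- host and the colitis, and the control carries no Cre. The labels give no age, sex or Rag gene and do not say whether a library is 1 mouse or a pool, so the spread between libraries may be technical, and every p-value below measures only that spread.

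The targeted gene did not check the labels. Esr1 had 0.23 and 0 FPKM in the controls against 0 and 1.96 in the second group, so a library of the second group is named by its label, as labelled CD4cre. Depth was low, at an estimated 501000 to 698000 fragments per library. The sort markers themselves differed: Cd3e had 65.5 and 60.2 FPKM in controls against 9.81 and 10.1, Cd3g had 202 and 187 against 25.9 and 26.8, and Cd4 had 155 and 128 against 52.6 and 52.4. Summed over 17 T cell markers, FPKM was 2003 and 1593 in controls 1 and 2 but 448 and 383 in libraries 1 and 2 labelled CD4cre. Summed over 22 macrophage and monocyte markers it was 128 and 578 against 2988 and 3559, and 6, 1, 1 and 0 of the markers were listed at 0. In bulk RNA, fewer cells of a type and less RNA per cell cannot be told apart. The part of these markers in the results below was not tested.

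None of the 10 factors passed the test between the groups. Batf, Rora and Gata3 had the lowest values in the libraries labelled CD4cre relative to controls, at 14.8%, 24.3% and 25.5% of the control mean. The remaining factors stayed closer: Irf4 was at 49.1% of the control mean with widely spread values, Stat3 at 70.3%, Id2 at 78.5%, Maf at 88.1%, Stat6 at 89.1%, Runx1 at 98.9% and Bcl6 at 151%. In limma, across 12896 genes with a mean of at least 1 FPKM, 0 of the 10 were called at an adjusted p under 0.05. The background was as small, with 0.0155% of tested genes called higher and 0.0388% called lower. At an unadjusted p under 0.05, 3 of the 10 were lower (Batf, Rora and Gata3) and 0 were higher, where 6.8% of all tested genes were lower and 9.1% higher.

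The 4 libraries also separated by group for most of the factors. For 7 of the 10, both libraries labelled CD4cre lay below both controls, against a background of 25.7% of tested genes. For 1, Bcl6, both lay above, against 23.2%. Only Maf and Runx1 overlapped between the groups. By mean log2 value 8 of the 10 were lower, against 53.6% of tested genes. The median log2 fold change of the 10 was -0.40, where the median over all tested genes was -0.07 and that of the T cell markers -2.55. Changes are given as libraries labelled CD4cre minus control on log2(FPKM + 1), a scale that makes changes of low genes look smaller.

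**Figure D1:**
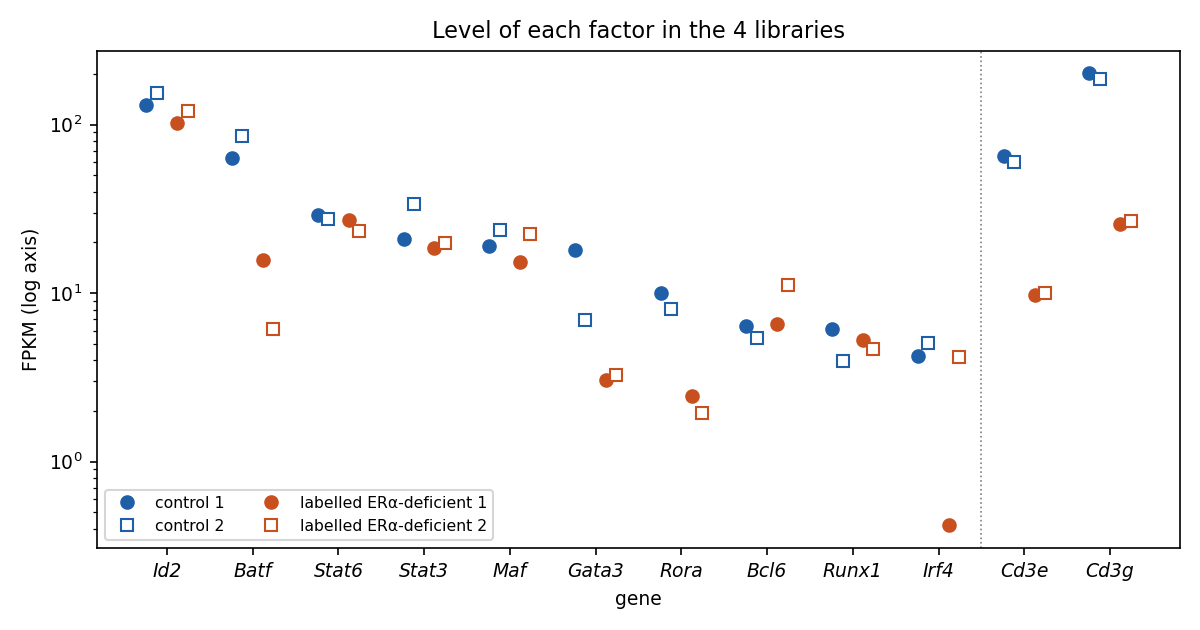
FPKM of each factor (log axis) in the 4 libraries, with Cd3e and Cd3g at the right; blue marks controls, orange those labelled CD4cre (ERα-deficient in the key), filled circles library 1 and open squares library 2. Batf and Rora lie well apart between the groups, as do Cd3e and Cd3g. Gata3 does not overlap, but its controls lie far from each other, and Irf4 has 1 low point at 0.42 FPKM.

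Batf stood furthest from its control level. Batf (NCBI gene 53314; GRCm38 chromosome 12, 85686720 to 85709087) encodes an AP-1 family protein required for Th17 and follicular helper cells. It had 63.4 and 85.2 FPKM in controls 1 and 2, but 15.8 and 6.10 in libraries 1 and 2 labelled CD4cre. Every control value lay far above the other group, whose libraries also differed widely from each other. The means were 74.3 ± 15.4 and 10.97 ± 6.89 FPKM (SD, n = 2), and limma gave a log2 fold change of -2.77 ± 0.50 (SE, adjusted p = 0.129). Only 0.822% of tested genes had a lower log2 fold change.

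Batf is a short transcript, so these levels rest on few fragments. On its single listed transcript of 955 bases they correspond to about 42.2, 54, 7.58 and 3.24 fragments, and the ratio of the groups' summed fragments, scaled to depth, was 0.148 with an exact 95% interval of 0.0713 to 0.276. Such intervals cover counting error only, because fragments were summed over the libraries of a group and the spread between libraries was left out. Duplicates of a molecule could not be told apart in these estimates either. With voom weights on estimated fragments, chosen after the data were seen, the adjusted p of Batf was 0.0631, and 0 of the 7 factors that this fit could take were called. That fit called 2.29% of its 6367 genes higher and 0.817% lower.

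Rora had the next lowest ratio, with replicates closer together than those of Batf or of the Gata3 controls. Rora (NCBI gene 19883; chromosome 9, 68653404 to 69388246) encodes the nuclear receptor RORα. It had 10.1 and 8.10 FPKM in controls, against 2.46 and 1.95 in those labelled CD4cre. Both of the latter lay far below the lower control value. The means were 9.07 ± 1.38 and 2.21 ± 0.36 FPKM (SD, n = 2), and the log2 fold change was -1.65 ± 0.44 (SE, adjusted p = 0.19 in limma). Rora is listed with 3 transcripts, which the gene-level value does not separate.

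Gata3 was lower too, but its controls disagreed. Gata3 (NCBI gene 14462; chromosome 2, 9857078 to 9887953) had 17.9 FPKM in control 1 but 6.89 in control 2, while those labelled CD4cre had 3.05 and 3.28. Control 2 was at 0.384 times the level of control 1, the widest such gap among the 10 factors, while the other group's libraries were nearly equal. The means were 12.4 ± 7.82 and 3.17 ± 0.16 FPKM (SD, n = 2), with a log2 fold change of -1.55 ± 0.55 (SE, adjusted p = 0.272 in limma). Without control 1 the log2 fold change was -0.92, and without control 2 it was -2.19. The values correspond to about 40.3, 14.7, 4.91 and 5.87 fragments, with a ratio of summed fragments of 0.257 (exact 95% interval 0.122 to 0.497). Exons of Gata3 share 155 bases with Gm13256 on the opposite strand and 77 with 9230102O04Rik on the same strand, and the sources used here do not say whether strand was used in counting.

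Promoter sequences are shown for these 3 genes and for Bcl6, the factor at the other end of the range, because the estrogen receptor and the factors themselves bind DNA. Each is the RefSeq sequence (GRCm38.p6) from 250 to 61 bases before an annotated start, 190 bases, 5′ to 3′ on the gene's strand. Capitals mark matches, on either strand, to 10 motifs: the palindromic estrogen response element (GGTCA, 3 free bases, and its reverse complement), AGGTCA (half-site of nuclear receptors including RORα), AGATAA (bound by GATA factors), TTCNNNGAA (STAT), TTC and GAA 4 bases apart (the spacing preferred by STAT6), TGANTCA (AP-1), TGTGGT (RUNX), TGCTGA (MAF half-site), GAAA repeated after 2 bases (IRF) and CANCTG (E proteins). Bcl6 has a window at each of its starts, and the one at the inner start is shown. The Rora and Gata3 windows also belong to inner starts, and lie within the gene positions given above.
Batf, chr12:85686470-85686659, plus strand: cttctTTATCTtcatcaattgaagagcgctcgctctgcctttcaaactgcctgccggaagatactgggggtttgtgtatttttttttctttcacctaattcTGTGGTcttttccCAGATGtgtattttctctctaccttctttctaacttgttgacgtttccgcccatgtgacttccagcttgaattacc
Rora, chr9:68653536-68653725, plus strand: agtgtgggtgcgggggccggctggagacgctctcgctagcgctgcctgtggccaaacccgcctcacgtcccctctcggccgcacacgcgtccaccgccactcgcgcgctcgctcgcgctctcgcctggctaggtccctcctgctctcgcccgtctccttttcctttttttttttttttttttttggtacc
Gata3, chr2:9878661-9878850, minus strand: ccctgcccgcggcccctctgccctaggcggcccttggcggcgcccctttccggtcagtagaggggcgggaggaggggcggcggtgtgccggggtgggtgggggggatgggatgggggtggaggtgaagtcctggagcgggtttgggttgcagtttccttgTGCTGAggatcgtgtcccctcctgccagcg
Bcl6, chr16:23981344-23981533, minus strand: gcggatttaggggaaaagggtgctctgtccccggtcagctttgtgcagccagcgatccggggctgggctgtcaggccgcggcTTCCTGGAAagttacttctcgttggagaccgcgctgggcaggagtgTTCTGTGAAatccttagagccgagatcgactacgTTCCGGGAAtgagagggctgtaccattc

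The windows of the 3 lowest factors had no motif in common. Batf held a match to the GATA, RUNX and E protein motifs, Gata3 a match to the MAF half-site, and Rora none. The Bcl6 window held 3 matches to the STAT motif, and the window at its outer start held 1, where 5.51% of all 32841 windows held any. No window of a factor held the full estrogen response element, which 0.0426% of all windows held. Windows were at hand for 9 of the factors (11 windows). Of these 11, 1 held AGGTCA (10.8% of all windows), 1 AGATAA (8.06%), 2 TGTGGT (11%), 2 TGCTGA (12.3%) and 3 CANCTG (36.8%), and 0 held the STAT6 spacing (4.54%), TGANTCA (5.22%) or the IRF motif (2.34%). AGGTCA contains an arm of the estrogen response element, and no matches overlapped in the windows shown. An exon of Gm13256 lies over the Gata3 window on the opposite strand. A match is a string of letters in a short window and shows neither binding nor regulation.

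Irf4, the partner of BATF on composite elements, was decided by 1 library. Irf4 (NCBI gene 16364; chromosome 13, 30749233 to 30766981) had 4.25 and 5.09 FPKM in controls, against 0.42 and 4.17 in those labelled CD4cre. The groups did not overlap, but 4.17 lay just under the lower control, and 0.42 corresponds to about 1 fragment, below the 1.26 FPKM that a count of 0 would allow there. The log2 fold change was -1.06 ± 0.73 (SE, adjusted p = 0.526 in limma), and it was -0.13 without the first library labelled CD4cre. The ratio of summed fragments was 0.515 (exact 95% interval 0.24 to 1.04).

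Stat3 and Stat6 are the cytokine-activated factors, and neither passed the test. Stat3 (NCBI gene 20848; chromosome 11, 100886806 to 100939594) had 21.1 and 33.7 FPKM in controls, against 18.6 and 19.9 in those labelled CD4cre. Its control 2 stood apart, and the log2 fold change of -0.45 ± 0.37 (SE, adjusted p = 0.584 in limma) was -0.13 without that library and -0.78 without control 1. Stat6 (NCBI gene 20852; chromosome 10, 127642955 to 127660987) was the most even of the 10, with 29.2 and 27.5 FPKM in controls, against 27.1 and 23.4 in those labelled CD4cre. The means of Stat6 were 28.3 ± 1.21 and 25.2 ± 2.61 FPKM (SD, n = 2), and its log2 fold change was -0.16 with a 95% interval of -0.94 to 0.62, which does not show that the levels were equal. Stat3 shares 72 exon bases with Stat5a and Stat6 shares 40 with Nab2, each on the opposite strand.

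Maf, Id2 and Runx1 did not pass the test either. Maf (NCBI gene 17132; chromosome 8, 115703253 to 115706894) had 19.1 and 23.8 FPKM in controls, against 15.3 and 22.4 in those labelled CD4cre, so the libraries interleaved. Its log2 fold change was -0.19, with a 95% interval of -1.11 to 0.73, and turned to 0.072 without the first library labelled CD4cre. Maf shares 440 exon bases with Gm15655 on the opposite strand. Id2 (NCBI gene 15902; chromosome 12, 25093799 to 25096092) had 131 and 153 FPKM in controls, against 102 and 121 in those labelled CD4cre, on about 64.8 to 129 fragments. Both values of the latter lay below both controls, with a log2 fold change of -0.35 ± 0.27 (SE, adjusted p = 0.568 in limma). Its ratio of summed fragments was 0.793 (exact 95% interval 0.643 to 0.976, counting error only). The same ratio was 0.898 (0.711 to 1.13) for Maf and 0.882 (0.677 to 1.14) for Stat6. Runx1 (NCBI gene 12394; chromosome 16, 92601466 to 92826074) had 6.11 and 3.97 FPKM in controls, against 5.30 and 4.67 in those labelled CD4cre, which lay between them. Its log2 fold change was 0.01, with a 95% interval of -1.11 to 1.13.

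Bcl6 was the only factor with higher values in both libraries labelled CD4cre. Bcl6 (NCBI gene 12053; chromosome 16, 23965050 to 23988866) had 6.43 and 5.39 FPKM in controls, against 6.56 and 11.3 in those labelled CD4cre. The first of the latter was barely above control 1, and the second was the high one. The log2 fold change was 0.48 ± 0.45 (SE, adjusted p = 0.628 in limma), or 0.13 without the second library labelled CD4cre. The fragment ratio was 1.51 (exact 95% interval 0.892 to 2.57).

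The order of the factors differed between the groups. Id2 was the highest of the 10 in all 4 libraries, above 94.3% to 96.7% of the detected genes. Batf was second in both controls, above 91.8% and 94% of detected genes, and in the libraries labelled CD4cre it was 4th and 6th, above 70.3% and 46%. Stat6 was second there. Stat6, Stat3 and Maf were 3rd to 5th in both controls, and the neighbours among them did not differ beyond their spread. Gata3 and Rora, 6th and 7th in controls in alternating order, were 8th to 10th in the libraries labelled CD4cre. Bcl6, Runx1 and Irf4 filled the lowest ranks in controls, and neighbours among them overlapped.

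Set against Cd3e and Cd3g of the same library, most of the factors stood higher in the libraries labelled CD4cre. On this scale each value is log2(FPKM + 1) minus the mean of the same quantity for Cd3e and Cd3g, both chains of the T cell receptor complex. This divisor rests on few fragments in the libraries labelled CD4cre, about 7.19 and 8.2 for Cd3e and 13.3 and 15.3 for Cd3g. In controls it rests on about 66.8 and 58.5 for Cd3e and 144 and 127 for Cd3g. Id2, Stat6, Maf, Stat3, Runx1 and Bcl6 were higher in the libraries labelled CD4cre, past the test (adjusted p 0.0014 to 0.00303 in limma), with log2 fold changes of 2.24 to 3.17. Gata3, Rora and Irf4 were not past it, and for Batf no difference between the groups was detected on this scale. These 6 of 10 stand against a background of 87.9% of all tested genes called higher on this scale and 0.124% called lower, so being called there sets no gene apart. Cd3e and Cd3g, the divisor, themselves had lower values in these libraries: over all tested genes the median on this scale was 2.62, and over the 10 factors 2.29. For 9 of the 10 the groups did not overlap in the higher direction, where 94.9% of tested genes did the same and 0.349% lay lower without overlap.

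Batf was the factor whose change between the groups was nearest to that of Cd3e and Cd3g. Its FPKM was 55.2% and 80.2% of the geometric mean of Cd3e and Cd3g in controls, against 99.5% and 37.1% in those labelled CD4cre. The latter values lie on both sides of the control values. The relative log2 fold change was -0.08, with a 95% interval of -1.34 to 1.18 and an adjusted p of 0.887 in limma, and its sign turned without control 2 (0.19) and without the second library labelled CD4cre (0.57).

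In relative change, Gata3 and Rora lay between Batf and the rest. Gata3 was at 15.6% and 6.49% of CD3 in controls, against 19.1% and 20% in the other group, a relative log2 fold change of 1.14 (95% interval -0.17 to 2.44, adjusted p = 0.0843 in limma). Rora was at 8.75% and 7.63% against 15.4% and 11.9%, a relative change of 1.04 (95% interval -0.06 to 2.14, adjusted p = 0.0666). It passed with Cd3g alone as the divisor (adjusted p = 0.0433). Irf4 was at 3.70% and 4.79% of CD3 in controls but 2.64% and 25.4% in the other group, and its relative change of 1.63 (adjusted p = 0.0742) became 2.54 (adjusted p = 0.0121) without the first library labelled CD4cre.

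The changes of the other factors differed from that of Cd3e and Cd3g by more. Id2 was at 114% and 144% of CD3 in controls, against 639% and 737% in those labelled CD4cre, a relative change of 2.34 ± 0.28 (SE, adjusted p = 0.0014 in limma). Stat6 was at 25.4% and 25.9% against 170% and 142%, and Stat3 at 18.3% and 31.7% against 117% and 121%. Maf was at 16.6% and 22.4% against 96.1% and 137%. Bcl6, at 5.60% and 5.07% against 41.2% and 68.5%, had the largest relative change of the 10, 3.17 ± 0.44 (SE). Runx1 was at 5.32% and 3.74% against 33.3% and 28.4%. The CD3 chains were not alike as divisors: Cd3d had a log2 fold change of -0.78 and Cd247 of -1.35 on the deposited scale, against -2.54 for Cd3e and -2.84 for Cd3g, so these relative values hold for Cd3e and Cd3g.

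**Figure D2:**
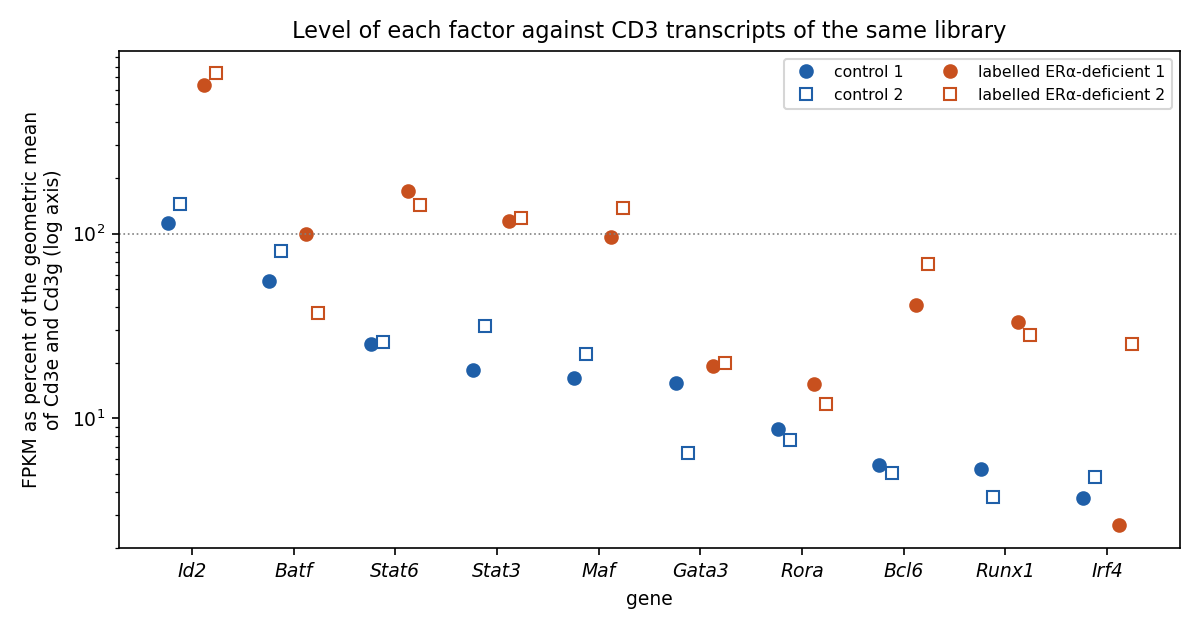
FPKM of each factor as a percentage of the geometric mean of Cd3e and Cd3g in the same library (log axis; the dotted line is 100%); symbols as in the plot of levels. Batf in the libraries labelled CD4cre, at 99.5% and 37.1%, brackets its controls, while Id2 reaches 639% and 737%.

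**Figure D3:**
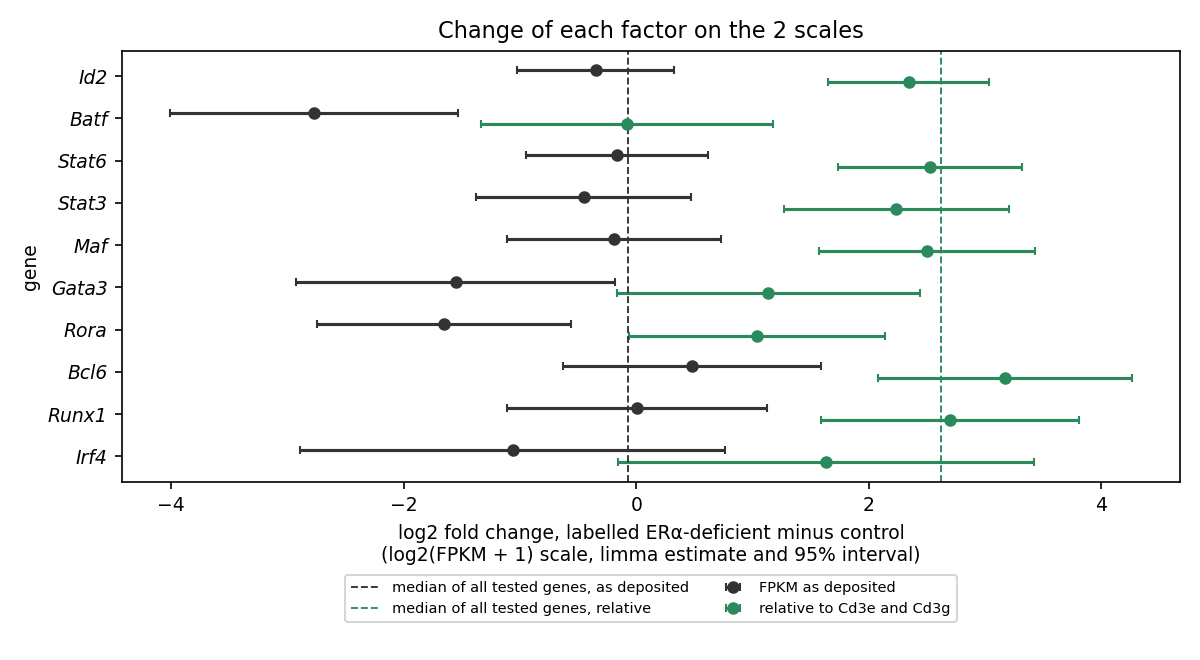
Log2 fold change of each factor with its 95% interval from limma, on FPKM as deposited (black) and relative to Cd3e and Cd3g (green); dashed lines are the medians of all 12896 tested genes on each scale, -0.07 and 2.62. The intervals of Batf, Rora and Gata3 lie left of the median on both scales, and those of the other factors hold it.

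The controls give a second view of the same markers. Control 2 held more macrophage marker transcripts than control 1 (578 against 128 FPKM summed) and fewer T cell marker transcripts (1593 against 2003). Among the marker lists the controls differed most in red cell markers, at 221 FPKM summed in control 1 and 8395 in control 2, which was above both libraries labelled CD4cre (6693 and 5242), and neutrophil markers stood at 2075 and 4350. Of the 10 factors, 5 were higher in control 2 (Maf, Batf, Irf4, Stat3 and Id2) and 5 lower. Batf was 1.34 times as high and Stat3 1.6 times, while Gata3 was at 0.384 times, Runx1 at 0.65 times and Rora at 0.806 times. With 1 library on each side no error can be given.

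By pattern over the 4 libraries, the nearest protein-coding genes to Batf, the factor with the lowest change, were Gimap4, Crtam and Ifng. The measure was the Euclidean distance of log2(FPKM + 1) centred on each gene's mean, over 11321 genes, and the distances were 0.247, 0.331 and 0.352. Ifng, the Th1 cytokine gene, had 58.9 and 60.5 FPKM in controls, against 15.1 and 4.51 in those labelled CD4cre. Gimap4, a GTPase gene of lymphocytes, had 270 and 325 against 54.9 and 26.6, and Crtam had 6.68 and 7.78 against 1.03 and 0. In each of them, as in Batf, the second library labelled CD4cre was the lowest. For Bcl6, at the other end, they were Fez2, Fos and Trappc13 at distances of 0.0697, 0.0831 and 0.0834, all highest in that same library. Many genes change little, so small distances to Bcl6 are easily found. Both sets of genes were picked by their pattern in these 4 libraries. Sharing the lowest or highest library therefore follows from the choice and is no separate result.

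Relatives from the same protein families took other courses in places. Of 27 listed relatives 23 were tested. None was called in limma, with 4 higher and 2 lower at an unadjusted p under 0.05, 6 and 5 without overlap, and a median log2 fold change of 0.11. The background, here and for the lists below, was 9.1% of all tested genes higher and 6.8% lower at that p. Without overlap it was 23.2% higher and 25.7% lower. Batf3, a relative of Batf that marks dendritic cells, had 0 and 6.57 FPKM in controls, against 52.3 and 41.8 in those labelled CD4cre (log2 fold change 4.12, adjusted p = 0.161 in limma), where Batf was lower. Maff, a small MAF protein gene, had 14.2 and 13.1 against 42.6 and 49.1, where Maf overlapped. Id3, the T cell relative of Id2, had 4.56 and 3.19 in controls and was listed at 0 in both others. The Id3 control values correspond to only about 4.07 and 2.71 fragments. A count of 0 would allow 4.69 and 4.21 FPKM in the libraries labelled CD4cre, so a lower level of Id3 is not resolved. Irf8, a macrophage and dendritic cell factor, had 1.5 and 15.7 against 28.5 and 35.6. Stat4, which acts in Th1 cells, had 18.6 and 22.4 against 9.68 and 8.69, while Runx3 overlapped at 26.6 and 25.0 against 31.7 and 21.3. Summed over 13 dendritic cell markers, FPKM was 133 and 1324 in controls, against 4022 and 4154 in those labelled CD4cre, with 5, 2, 0 and 1 listed at 0.

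Genes that work with the factors were mixed as well. Of 14 listed partners that bind DNA or repress with them, all were tested and 0 called in limma, with 1 higher and 1 lower at an unadjusted p under 0.05, 5 and 4 without overlap, and a median log2 fold change of 0.22. Ets1, a factor of mature T cells, had 128 and 70.2 FPKM in controls, against 11.1 and 14.4 in those labelled CD4cre (log2 fold change -2.81, adjusted p = 0.108 in limma). Spi1, which encodes PU.1, a myeloid factor that binds DNA with IRF4, had 5.89 and 16.5 against 69.7 and 58.9. Upstream of STAT3 and STAT6, 19 of 20 listed receptors, kinases and inhibitors were tested and 0 called in limma, with 4 higher and 6 lower at an unadjusted p under 0.05, 7 and 7 without overlap, and a median of 0.37. Cish, a feedback inhibitor gene switched on by cytokine signals, had 16.1 and 10.7 against 0.71 and 1.28, and Il27ra, a receptor that signals through STATs, had 32.1 and 25.8 against 5.21 and 6.02. Others stood the other way: Il6ra, the interleukin 6 receptor gene upstream of STAT3, had 5.49 and 7.97 against 30.5 and 25.9, and Ptpn6, which encodes the phosphatase SHP-1, had 43.9 and 51.5 against 128 and 117. With voom weights 1 relative was called higher, 1 partner was called higher and 1 upstream gene lower.

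Genes of the Th2 and Th17 programs went both ways. Of 13 listed Th2 genes 10 were in the table and 6 were tested; 0 were called in limma and 0 had an unadjusted p under 0.05, 2 lay higher and 2 lower without overlap, and the median log2 fold change was -0.37. Il4 had 9.92 FPKM in control 1 and was listed at 0 in the other 3 libraries. Ccr4, a chemokine receptor of Th2 cells, had 10.9 and 9.54 in controls against 5.98 and 4.79, and Gfi1, a repressor that supports Th2 growth, had 6.80 and 5.66 against 3 and 2.70. Ptgdr2, a prostaglandin receptor gene of Th2 cells, and Il4ra, the receptor gene upstream of STAT6, were higher without overlap, at 19.5 and 20.98 against 27.8 and 41.2, and at 5.54 and 3.78 against 7.72 and 9.36. Of 13 Th17 genes 11 were tested and 0 called, with 1 higher and 3 lower at an unadjusted p under 0.05, 2 and 3 without overlap, and a median of -0.12. Il12rb1, a subunit of the interleukin 12 and 23 receptors, had 7.95 and 12.5 against 0.69 and 1.86. The latter values correspond to only about 0.993 and 2.98 fragments. Cxcr6, a homing receptor, had 43.3 and 33.5 against 18.0 and 13.3.

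Most follicular helper genes had lower values in the libraries labelled CD4cre. Of 14 listed, 13 were tested and 0 called in limma, with 8 lower and 0 higher at an unadjusted p under 0.05, 11 lower and 1 higher without overlap, and a median log2 fold change of -1.65. Cd40lg, by which helper cells activate B cells, had 39.5 and 48.7 FPKM in controls, against 3.23 and 2.90 in those labelled CD4cre (log2 fold change -3.47, adjusted p = 0.082 in limma). The latter values correspond to only about 2.02 fragments in each library. Tnfsf8, the CD30 ligand gene, had 21.2 and 16.2 against 2.69 and 2.41. Bcl6, the defining factor of these cells, was not lower in the same libraries. Relative to Cd3e and Cd3g the median of this list was 1.04, below the 2.29 of the factors and the 2.62 of all tested genes. The T cell markers had a median of 0.146 on that scale and of -2.55 on the deposited scale. Both lie below the medians of the follicular helper list, so its lower values are not particular to that program.

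**Figure D4:**
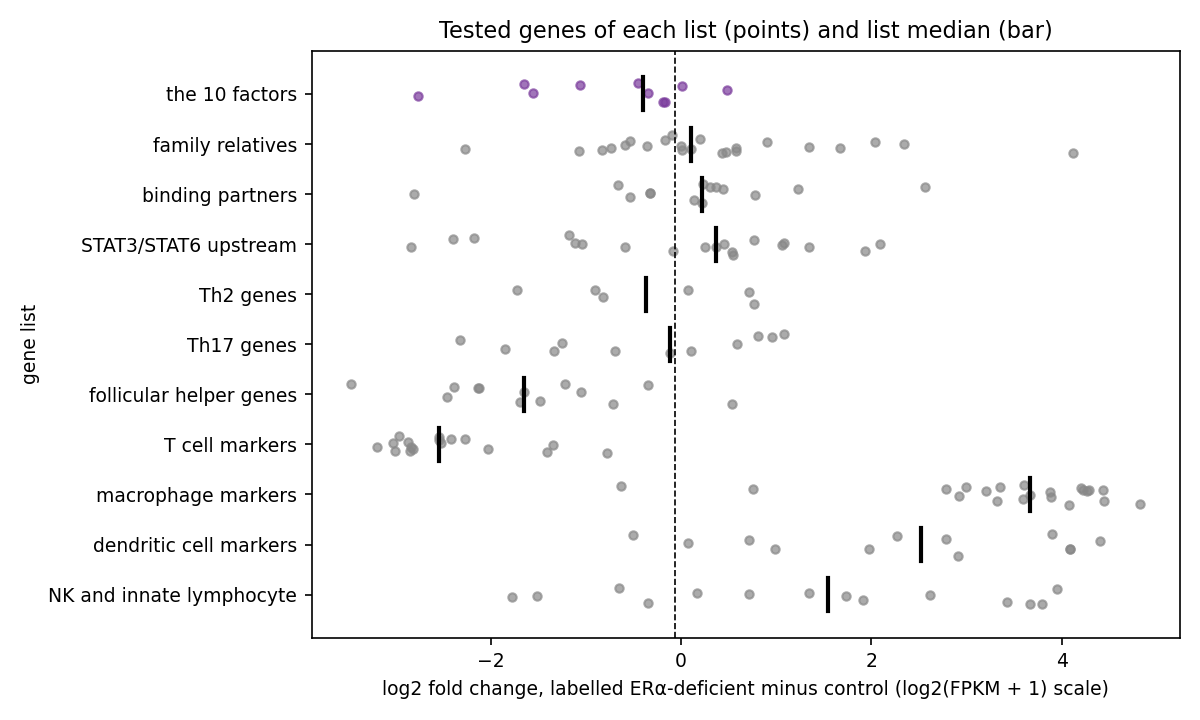
Log2 fold change (libraries labelled CD4cre minus control) of every tested gene of each list, with the list median as a bar and the median of all tested genes, -0.07, as a dashed line. The 10 factors span -2.77 to 0.48, the T cell markers have a median of -2.55 and the macrophage markers one of 3.67.

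Of the factors, 4 lay within the range of the T cell markers. All 17 T cell markers were lower without overlap, 16 of them at an unadjusted p under 0.05, with log2 fold changes from -3.19 (Lat) to -0.78 (Cd3d). They included Lck, with 182 and 133 FPKM in controls against 19.3 and 17.3, and Cd5, with 77.7 and 61.8 against 7.72 and 10.4. Batf at -2.77, Rora at -1.65, Gata3 at -1.55 and Irf4 at -1.06 lay inside this range, and the other 6 lay above its upper end. The range is wide: 0.364% of tested genes had a lower log2 fold change than Lat, and 18.4% a lower one than Cd3d. Of the 4, only Batf lay below the marker median of -2.55, and Irf4 lay above every marker but Cd3d. Of 21 tested macrophage markers 19 were higher without overlap (median 3.67), all 19 at an unadjusted p under 0.05. Neither list had a gene called in limma. With voom weights 9 T cell markers were called lower and 11 macrophage markers higher.

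Marker lists of other cell types, some of which use these factors, were compared as well. Of 14 tested NK and innate lymphocyte markers 7 were higher and 2 lower without overlap, 6 and 1 at an unadjusted p under 0.05, with a median of 1.54. Their summed FPKM was 205 and 185 in controls against 498 and 558, with 7, 4, 2 and 0 of them listed at 0. Of 12 tested dendritic cell markers 8 were higher and 1 lower without overlap, 6 and 0 at an unadjusted p under 0.05 (median 2.53). Of 12 neutrophil markers 7 were higher without overlap, 5 of them at an unadjusted p under 0.05 (median 1.2), and of 12 red cell markers 1 was higher without overlap and 0 had such a p (median 1.81, with summed FPKM lowest in control 1 and highest in control 2). Of 13 B and plasma cell markers 5 could be tested, with 2 higher and 1 lower without overlap and 0 at an unadjusted p under 0.05 (median 1.06). No gene of these lists was called in limma. With voom weights 3 dendritic cell markers were called higher and 1 NK and innate lymphocyte marker lower. The part of these cells, and of macrophages, in the levels of the factors was not tested for any of them, Bcl6 included.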

How the data were processed

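The deposited table holds FPKM per gene computed by the authors, with 1 column per library and none pooled. Per the submitters' processing notes, HISAT, Bowtie2, RSEM and mm10 were used, with no version or role given. Versions, filters and strand use are not given in the sources used here. Positions come from RefSeq's GRCm38.p6 annotation, which shares the mm10 coordinates, by NCBI gene identifier (16183 of 16230 genes matched).

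From the table, log2(FPKM + 1) was tested with limma 3.58.1 in R 4.3.3 over 12896 genes whose mean reached 1 FPKM, with group as the only term, a variance trend, two-sided tests and Benjamini-Hochberg adjustment, and a gene was called below an adjusted p of 0.05. With 2 libraries against 2, an exact permutation test of 1 gene cannot go below 0.33, so none was run. The second fit subtracted the mean of Cd3e and Cd3g. The procedure was also run on simulated data, with changes placed only in genes of higher FPKM and no shift in cell make-up. It therefore does not cover the factors of low FPKM, and no result above rests on it.

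Depth was estimated from genes with 1 transcript of over 800 bases, whose FPKM times length (GENCODE transcript lengths) falls on multiples of 1 fragment: the estimates were 698000 and 664000 (controls), then 501000 and 557000 (labelled CD4cre). Of low values, 75.9% to 77.8% fell less than 0.2 from a whole number, and 30.7% to 31.1% did so after the step was displaced. Voom weights used genes with at least 20 such fragments.

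Named genes were the 10 factors, Cd3e, Cd3g, Cd4 and Esr1, the 2 smallest unadjusted p of each program, partner or upstream list (4 for relatives and T cell markers, of which Cd3g, Lat, Lck and Cd5), close relatives of a factor, and the 3 nearest patterns. Marker lists of other cells are given by counts, and some relatives are not reported here. Il4, Il4ra, Il6ra, Ptgdr2, Ptpn6, Cd3d and Cd247 were named after their values were seen. The factors and lists were chosen with earlier results of these data known. Alternatives were other pseudocounts, filters, scalings and divisors, no trend, a replicate block, and each library left out.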

Additional observations from a re-analysis of the deposited data

How the results depend on the processing

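None of the 10 factors was called under any of the 13 alternatives on the deposited scale in which it was tested. The median of the factors ranged from -0.62 to -0.24 with single libraries left out. The filters, the fit without trend and the replicate block leave a factor's log2 fold change as it is, so its direction cannot turn there. Over all 13 alternatives, with those fixed values included, 122 values of single factors kept their direction and 4 did not. The latter were Maf without the first library labelled CD4cre (0.072; range with single libraries left out -0.45 to 0.072) and Runx1, whose log2 fold change of 0.01 became -0.00040 with a pseudocount of 5, -0.25 without control 2 and -0.068 without the first library labelled CD4cre (range -0.25 to 0.27). Where an arm was left with 1 library, that library is assumed to vary like the others.

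Calls over all genes, 2 higher and 5 lower, became 0 and 0 with a pseudocount of 0.1, no filter, no trend, the replicate block, and with any 1 library left out. They were 0 higher with a pseudocount of 5 or a mean FPKM of at least 5, 1 higher with quantile scaling, and 146 higher and 52 lower with voom weights, an alternative chosen after the data were seen. Deviations of same-numbered libraries from their group means had r = -0.002 across genes, which are not independent. With 2 libraries per group this cannot decide whether the numbers pair the libraries. The labels tie the numbers to no animal, litter or day.

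Relative to Cd3e and Cd3g, the calls of Id2, Stat6, Stat3, Maf, Bcl6 and Runx1 held in all 9 alternatives. The median of the factors was 2.04 with the mean of the T cell markers as divisor and ranged from 2.01 to 2.51 with single libraries left out. Genes called lower numbered 32 with a pseudocount of 0.1 and 19 to 45 with single libraries left out, against 16. Batf turned to 0.069 with Cd3g alone, 0.19 without control 2 and 0.57 without the second library labelled CD4cre (range -0.72 to 0.57). At 1 fragment or so in a library, Irf4 could not be resolved at this depth.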

Other observations

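Other lineage factors of T cells, none of them in the set above, spanned log2 fold changes of -2.93 to 2.08. Of 19 tested factors of Th1, regulatory, naive and memory cells, 11 were lower and 3 higher without overlap, with a median log2 fold change of -0.79, 6 lower and 2 higher at an unadjusted p under 0.05, and 0 called in limma or with voom weights. Over all tested genes 25.7% lay lower and 23.2% higher without overlap, and 6.8% and 9.1% did so at that p. Lef1, a factor of naive T cells, had 26.2 and 12.02 FPKM in controls, against 1.12 and 1.87 in those labelled CD4cre (log2 fold change -2.93, adjusted p = 0.129 in limma), a size like that of Batf. Nfil3, a factor also active in NK and dendritic cells, had 1.42 and 1.49 against 9.90 and 8.89 (log2 fold change 2.08, adjusted p = 0.15 in limma). The part of other cells in these values was not tested.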
